A study of Mus musculus with 2 samples.

Results

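A group of 5 genes of zinc handling were followed through the immune cells of mouse melanomas: the metallothioneins Mt1 and Mt2, the zinc-sensing transcription factor gene Mtf1, the zinc exporter gene Slc30a1 and the zinc importer gene Slc39a14. They were chosen by symbol, and all 5 were found among the 32285 genes of the count tables. The tumours were grown under the skin from B16-F10, a melanoma cell line of the mouse, and 14 days after injection their viable CD45+ cells (host white blood cells) were sorted. The tumour cells carried either an FDPS knockout (FDPS makes farnesyl diphosphate in the mevalonate pathway) or the WT genotype, and the hosts of both groups are described alike, with no treatment named. Each group of 3 tumours gave 1 droplet single-cell library, and cells are not mapped to tumours, so neither group has a replicate and no test between groups was possible. Every difference below is between 2 libraries, and every interval (95%, exact) covers counting error only. The sources used here do not say whether the knockout line was 1 clone.

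Metallothioneins are very small proteins whose many cysteines bind zinc and copper and buffer the free metal in the cell. MTF-1, the product of Mtf1, binds zinc and then switches on Mt1, Mt2 and Slc30a1 through short metal response elements in their promoters, and glucocorticoids, hypoxia and oxidative stress can raise metallothionein transcripts as well. ZnT1, the product of Slc30a1, carries zinc out of the cytosol across the plasma membrane, and ZIP14, the product of Slc39a14, brings zinc, iron and manganese in. In tumours, metallothionein transcripts have been linked to the dysfunctional state of CD8 T cells.

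Mt1 and Mt2 are neighbours on mouse chromosome 8 (GRCm38, GENCODE vM21): Mt2 (ENSMUSG00000031762) at 94172664 to 94173568 and Mt1 (ENSMUSG00000031765) at 94179082 to 94180327, both on the plus strand and 5513 bases apart. Mtf1 (ENSMUSG00000028890) lies on chromosome 4 at 124802104 to 124849800, Slc30a1 (ENSMUSG00000037434) on chromosome 1 at 191906767 to 191913247, and Slc39a14 (ENSMUSG00000022094) on the minus strand of chromosome 14 at 70303469 to 70351425. The coding sequences of the metallothioneins are shown because they set out both what these proteins are and how far their reads can be told apart. Capitals mark the codons for cysteine (TGC or TGT).
Mt1 coding sequence: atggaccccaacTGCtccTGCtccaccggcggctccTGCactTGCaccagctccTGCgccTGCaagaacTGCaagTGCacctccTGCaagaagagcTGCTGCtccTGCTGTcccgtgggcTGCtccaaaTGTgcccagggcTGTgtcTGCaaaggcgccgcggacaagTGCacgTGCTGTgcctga
Mt2 coding sequence: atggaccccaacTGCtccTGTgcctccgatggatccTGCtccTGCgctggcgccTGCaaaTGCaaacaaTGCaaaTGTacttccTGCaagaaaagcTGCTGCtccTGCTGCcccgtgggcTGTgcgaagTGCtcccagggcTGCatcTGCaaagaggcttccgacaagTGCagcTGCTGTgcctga
Each has 61 codons before the stop, 20 of them (32.8%) for cysteine, and all 20 lie at the same place in both. The sequences share 148 of 186 bases (79.6%). No run of 31 bases was shared between any annotated transcripts of the pair. Copies elsewhere in the genome were not examined. Mt2 overlaps Gm45774, Slc30a1 overlaps 1700034H15Rik and Mtf1 overlaps 1110065P20Rik, each on the opposite strand, and Mtf1 also n-R5s192 on its own strand. The sources used here do not say whether counting used strand.

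The promoters of Mt1 and Mt2 are shown since both genes are known targets of MTF-1. Capitals mark matches to the metal response element core, searched as TGCACNC and TGCGCNC on both strands. Both stretches are from RefSeq on GRCm38.p6, plus strand, and run from 250 bases before the start of the transcript to 30 bases into it.
Mt1 promoter, chr8:94178839-94179118: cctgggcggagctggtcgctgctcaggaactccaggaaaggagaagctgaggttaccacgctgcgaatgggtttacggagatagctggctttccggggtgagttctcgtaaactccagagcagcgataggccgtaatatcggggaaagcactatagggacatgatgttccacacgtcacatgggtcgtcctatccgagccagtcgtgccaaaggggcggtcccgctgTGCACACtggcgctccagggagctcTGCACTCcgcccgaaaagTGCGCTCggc
Mt2 promoter, chr8:94172368-94172647: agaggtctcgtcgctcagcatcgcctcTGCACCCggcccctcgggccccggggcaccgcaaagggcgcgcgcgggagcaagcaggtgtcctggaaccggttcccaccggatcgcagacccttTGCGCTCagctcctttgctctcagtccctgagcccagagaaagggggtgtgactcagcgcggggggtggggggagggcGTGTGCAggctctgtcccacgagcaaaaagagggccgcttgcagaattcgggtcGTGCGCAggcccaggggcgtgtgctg
Mt1 has 3 matches, which begin at -23, 3 and 21 from the start, and Mt2 has 4, which begin at -223, -128, -50 and 5. Over the full 300 bases of the table, the Slc30a1 promoter holds 2 matches (beginning at -43 and 31) and that of Mtf1 holds 0. Among the 32851 promoters of that table, 25.7% hold at least 1 match, 7.11% at least 2, 1.97% at least 3 and 0.518% at least 4. A promoter was found there for 4 of the 5 genes, all but Slc39a14. GENCODE places further starts of Mt1 (94179211 and 94179241) and those of Mt2 (94172664 and 94172860) beyond the stretches shown, and no binding was measured here.

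After filtering, 8697 knockout and 9415 control barcodes were kept, with a median of 11148 and 14012 unique molecular identifiers (UMIs, counted transcripts) per cell. Cells were assigned to classes by 14 sets of 6 marker genes, which placed 75.9% and 72.5% of them. The libraries shared 30 barcodes before filtering. In the 17 knockout and 487 control cells of the melanoma gate, Fdps stood at 105 (89.4 to 123) and 395 (387 to 403) CPM (counts scaled to a class total of 1e6), in the direction of the labels. This gap was not particular to the melanoma gate. Fdps was at 27.7 and 77.5 CPM in CD8 T cells and 18.8 and 47.5 CPM in monocytes or macrophages. In mature dendritic cells it was at 54.0 and 56.9 CPM. Marker RNA of melanoma cells and macrophages was higher in lymphocytes of the control library. Over the 4 lymphocyte classes compared, the 6 melanoma markers summed to 7.99 to 15.6 CPM in the knockout and 75.3 to 202 CPM in the control library. Of these 6 markers, 1 was at 0 in knockout B cells and none in the other 7 lymphocyte sums. The macrophage genes C1qa, C1qb and C1qc summed to 22.4 to 26.2 and 102 to 261 CPM. Over all retained cells they were at 409 and 3536 CPM. As a share of the whole library's profile, set by these genes, RNA of other cells was 6.39% and 2.88% in CD8 T cells. In B cells it was 5.475% and 7.38%. T cell markers were at 45.9 and 24.0 CPM in monocytes or macrophages and 62.5 and 61.7 CPM in B cells. Not all foreign RNA was thus higher in the control library.

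Mt1 was lower in the knockout library in all 8 classes that had at least 100 cells in each library. The gap was widest in T cells of unresolved subtype (mixed or no CD8, Cd4 and Foxp3 transcripts, "other T" in the plots) and narrowest in type 2 conventional dendritic cells (cDC2). In the control library, Mt1 stood at 691 CPM (685 to 697) in monocytes or macrophages, 637 (608 to 668) in T cells of unresolved subtype and 442 (436 to 448) in CD8 T cells. It then stood at 208 (191 to 227) in cDC2, 163 (147 to 179) in mature dendritic cells (DCs), 142 (122 to 164) in B cells, 102 (91.7 to 113) in type 1 conventional DCs (cDC1) and 58.8 (48.7 to 70.4) in natural killer (NK) cells. The intervals of mature DCs and B cells overlapped, and those of the other neighbours in this order did not. Single cells bear on this order: without the top cell of each class, control T cells of unresolved subtype were at 443 CPM beside 434 in CD8 T cells, and control B cells at 85.4 beside 91.5 in cDC1. In the knockout library the order was different: monocytes or macrophages led at 439 CPM (426 to 453), followed by cDC2 at 187 (177 to 197) and CD8 T cells at 81.8 (79.0 to 84.7). Mature DCs at 65.5 (54.3 to 78.4) and cDC1 at 61.1 (55.1 to 67.6) came next, with overlapping intervals. T cells of unresolved subtype were at 38.1 (34.7 to 41.8), B cells at 16.3 (10.44 to 24.3) and NK cells at 11.6 (9.33 to 14.2), the last pair again overlapping. The highest level of all was that of the control melanoma gate, at 2053 CPM (2035 to 2071), and these 487 cells held 34.8% of the Mt1 UMIs of the control library. The lowest among groups of at least 50 cells was that of knockout plasmacytoid DCs, at 4.25 CPM (1.94 to 8.07, 9 UMIs in 125 cells).

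**Figure D1:**
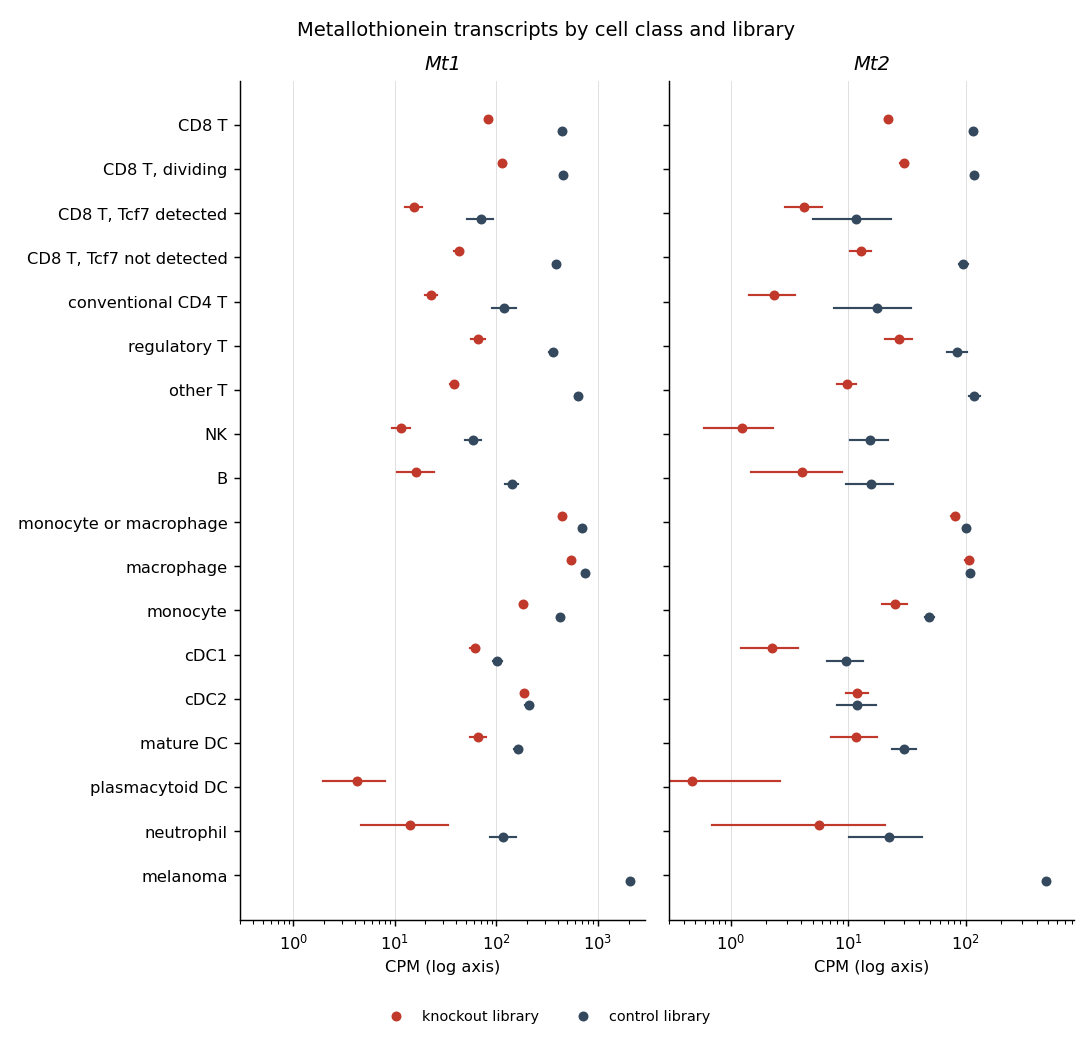
CPM of Mt1 and Mt2 (log axis, from 0.3) by gated class and state, with 95% Poisson intervals as lines, for groups of at least 50 cells; red is the knockout and dark blue the control library. The control points lie to the right of the knockout points in every T, NK and B row, while Mt2 of macrophages (106 and 109 CPM) and cDC2 (11.9 and 12.0 CPM) nearly coincides.

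In CD8 T cells, the killer lymphocytes, Mt1 was 5.40-fold (5.21 to 5.61) lower in the knockout library, a log2 ratio of -2.36. The ratio is of CPM plus 5, knockout over control. The 2275 knockout cells held 3206 Mt1 UMIs and the 1847 control cells 21625. In the knockout library 28.3% (26.4 to 30.2) of them had at least 1 Mt1 UMI and in the control library 76.7% (74.7 to 78.6). Median depths were 12891 and 21245 UMIs per cell, and with each cell thinned to 3000 UMIs (55 and 53 shallower cells left out) the shares were 10.95% and 42.1%. As a background, 7.54% and 36.5% of NK cells (medians of 10933 and 7842 UMIs) and 8.57% and 29.9% of B cells (8263.5 and 6133.5) had a Mt1 UMI, below the CD8 T shares in each library. The thinned shares were 2.51% and 18.4% in NK cells and 2.85% and 16.2% in B cells. Cells with 10 or more Mt1 UMIs made up 3.30% of knockout and 25.1% of control CD8 T cells. The top 10% of cells held 80.9% and 63.9% of the UMIs.

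Mt1 was also lower in the knockout library within states of the CD8 T cells. Dividing cells had 114 (109 to 118) and 455 CPM (449 to 462), a 4.01-fold difference, over 955 and 1334 cells. Resting cells without detected Tcf7, a gene of memory-like T cells, had 42.4 (37.8 to 47.3) and 385 CPM (369 to 402), a 9.10-fold difference. Resting cells with Tcf7 had the least, at 15.25 (12.6 to 18.3) and 69.7 CPM (51.4 to 92.4), over 650 and 84 cells, so only their levels are given. There the melanoma markers were at 9.67 and 198 CPM and the C1q genes at 25.9 and 167 CPM. The control Mt1 level and share (36.9%) were close to those of control NK cells (58.8 CPM and 36.5%), used above as a background. The part of RNA of other cells in this level was not tested. In both libraries the order of levels was dividing cells, then Tcf7-negative and then Tcf7-positive resting cells. Dividing cells were 42.0% of knockout and 72.2% of control CD8 T cells, and the log2 ratio was -3.39 without them and -2.31 with the 3 states weighted equally. It was -1.40 with each cell's Mt1 count held to at most 10. Melanoma markers and C1q genes were also higher in control CD8 T cells (7.99 and 75.3 CPM for the first, 26.2 and 102 CPM for the second). With free RNA of the whole library subtracted, at a share set by the C1q genes, Mt1 stood at 77.9 and 432.5 CPM.

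**Figure D2:**
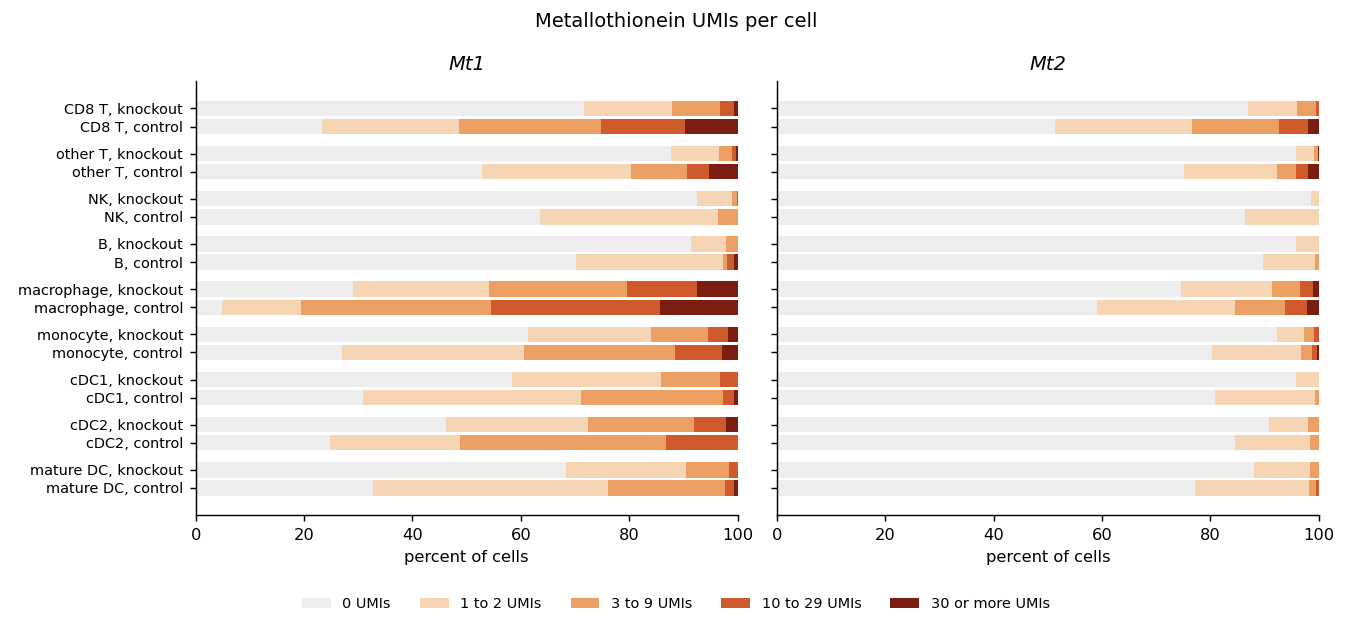
Percent of cells (horizontal axis) with 0, 1 to 2, 3 to 9, 10 to 29 or 30 and more UMIs of Mt1 and Mt2, by class and library, not corrected for depth. In CD8 T cells 71.7% of knockout and 23.3% of control cells had no Mt1 UMI, and in macrophages 28.95% and 4.86%.

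The CD4 lineages had the same direction with fewer cells. Conventional CD4 T cells were at 22.9 CPM (19.9 to 26.2) in 695 knockout cells and 120 (90.2 to 156) in 54 control cells. Regulatory T cells were at 66.4 (56.1 to 78.0) and 361 CPM (328 to 396), over 170 and 72 cells. Both control groups fell short of 100 cells, so only their levels are given. Melanoma markers were at 10.38 and 242 CPM and C1q genes at 32.1 and 128 CPM in conventional CD4 T cells, and at 9.48 and 106 and at 17.6 and 77.45 CPM in regulatory T cells, and their part in the Mt1 levels was not tested. T cells of unresolved subtype had the widest gap of the 8 classes, 16.7-fold (15.1 to 18.6), with a log2 ratio of -3.90. They made up 10.7% of the knockout and 2.05% of the control cells kept, and 17.3% and 34.2% of them were dividing. Whether this mixed class held the same T cells in both libraries was not tested. A single control cell held 555 of the 1749 Mt1 UMIs there. Without the top cell of each library the levels were 33.3 and 443 CPM and the log2 ratio -3.55, and with the cap at 10 UMIs per cell it was -2.04.

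NK cells, innate killers, had 93 Mt1 UMIs in 663 knockout cells and 119 in 219 control cells, a 5.09-fold (3.85 to 6.75) difference in CPM and a log2 ratio of -1.95. In B cells it was 8.72-fold (5.68 to 14.0) and -2.79, from 24 and 182 UMIs. One control B cell held 82 of the 182, and without the top cells the levels were 11.8 and 85.4 CPM (log2 ratio -2.43). Melanoma markers were also higher in these classes of the control library, at 9.82 and 187 CPM in NK cells and 15.6 and 202 CPM in B cells. The part of RNA of other cells in the gap was not tested beyond the subtractions here. With free RNA of the whole library subtracted, Mt1 was at 3.79 and 10.03 CPM in NK cells, under the 10 CPM mean required for a call, with a log2 ratio of -0.77. In B cells it was then at 9.22 and 93.0 CPM. With RNA of the melanoma gate subtracted instead, an alternative chosen after seeing the data, NK cells were at 10.9 and 34.0 CPM.

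Among myeloid cells the Mt1 gap was smaller. Monocytes or macrophages had 4169 UMIs in 649 knockout cells and 45262 in 3229 control cells, a 1.57-fold (1.52 to 1.63) difference and a log2 ratio of -0.65. With the cap at 10 UMIs per cell this was -0.51, inside 1.5-fold. Monocytes, which enter from blood, were at 185 (169 to 201) and 424 CPM (412 to 436), 2.30-fold apart. Macrophages, the mature tissue phagocytes (at least 10 C1q UMIs per cell), were at 548 (530 to 567) and 745 CPM (738 to 753), 1.36-fold apart. Dividing cells made up 12.9% of knockout and 41.6% of control macrophages, and without them the levels were 529 (509.5 to 550.0) and 855 CPM (843 to 866.5), 1.61-fold apart. The split rests on that threshold, and the cells near it, with 5 to 19 C1q UMIs, were 16.3% of the knockout class and 9.42% of the control class. Mature DCs, which carry antigen to lymph nodes, were 2.48-fold (2.02 to 3.07) apart and cDC1, which cross-present antigen, 1.67-fold (1.44 to 1.94). One cell held 92 of the 409 control UMIs in mature DCs, and the log2 ratio there was -1.25 with and -1.04 without the top cells. In cDC1 it was -0.70 and went to -0.48, inside 1.5-fold, when the cells with the highest doublet scores were removed. It was also inside 1.5-fold with the stricter gate and with RNA of the melanoma gate subtracted (60.5 and 90.9 CPM). Melanoma markers were at 12.7 and 138 CPM and C1q genes at 17.1 and 161 CPM in mature DCs, and at 10.9 and 87.6 and at 25.8 and 278.8 CPM in cDC1. In cDC2, which present antigen to CD4 T cells, the levels lay within 1.5-fold (log2 ratio -0.15), although a Mt1 UMI was seen in 53.8% (48.6 to 58.9) of the knockout cells and 75.2% (66.8 to 82.4) of those of the control. Knockout cDC2 had 8 of its 383 cells with 30 or more UMIs, and control cDC2 had 0 of 129, which allows a share of up to 2.33%. The cDC2 ratio was -0.73 when classes were taken from Leiden clusters. Neutrophils had 5 and 47 UMIs in 72 and 87 cells, or 14.2 (4.61 to 33.1) and 116 CPM (85.5 to 155). Their melanoma markers were at 28.4 and 354 CPM and their C1q genes at 42.6 and 295 CPM, and the part of this RNA was not tested.

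Mt2, the second metallothionein, was lower in the knockout library wherever its gap was past 1.5-fold. It stood at 21.8 CPM (20.4 to 23.3) in knockout and 114 (111 to 117) in control CD8 T cells, 5.23-fold (4.87 to 5.63) apart, with a log2 ratio of -2.15. In T cells of unresolved subtype it was at 9.74 (8.04 to 11.7) and 118 CPM (106 to 132), a log2 ratio of -3.06. In mature DCs it was at 11.6 (7.16 to 17.7) and 29.8 CPM (23.5 to 37.4), a log2 ratio of -1.07. One cell held 28 of the 75 control UMIs in mature DCs, and without the top cells the ratio was -0.67. Monocytes or macrophages (80.7 and 99.9 CPM, log2 ratio -0.29) and cDC2 (11.9 and 12.0 CPM) were within 1.5-fold. Within the former, macrophages were at 106 (97.8 to 114) and 109 CPM (107 to 112) with overlapping intervals. One knockout macrophage held 122 of the 649 Mt2 UMIs, and without the top cells macrophages were at 86.2 and 106.2 CPM. For the whole class the log2 ratio was -0.49 without the top cells and -0.82 as a mean over cells, and Mt2 was past 1.5-fold lower in 2 of 15 alternatives. Monocytes were at 24.997 (19.5 to 31.6) and 49.0 (45.0 to 53.3). In NK cells, B cells and cDC1, the mean of the libraries was under 10 CPM, with 10 and 31, 6 and 20, and 14 and 33 Mt2 UMIs.

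In CD8 T cells and in monocytes or macrophages, the share that Mt1 held of the UMIs of both metallothioneins differed less between libraries than the levels did. This share was 78.95% (77.7 to 80.2) in knockout and 79.5% (79.0 to 80.0) in control CD8 T cells. In monocytes or macrophages it was 84.5% (83.4 to 85.5) and 87.4% (87.1 to 87.6), and in cDC2 94.0% (92.6 to 95.2) and 94.6% (92.3 to 96.3). The cDC2 and macrophage shares thus exceeded that of CD8 T cells within each library. In cDC1 the shares were 96.5% (94.1 to 98.05) and 91.4% (88.2 to 94.03), without overlap. In NK cells they were 90.3% (82.9 to 95.25) and 79.3% (72.0 to 85.5). The shares in B cells were 80.0% (61.4 to 92.3) and 90.1% (85.1 to 93.85). T cells of unresolved subtype had 79.65% (76.1 to 82.9) and 84.4% (82.7 to 85.9). In each of these last classes, NK cells included, the intervals overlapped, so no direction is read from them. Within CD8 T cells, Mt1 and Mt2 tended to be seen in the same cells. Among those with a Mt1 UMI, 36.55% of knockout and 59.5% of control cells had a Mt2 UMI, against 3.92% and 13.5% of those without. In monocytes or macrophages these shares were 28.5% and 4.63% in the knockout and 37.4% and 13.6% in the control library. In control mature DCs they were 22.6% and 23.2%, and in control NK cells 16.25% and 12.2%. In the knockout library mature DCs had 22.5% and 6.98%, and NK cells 8% and 0.979%, with 9 and 4 cells that held both. The tendency was thus absent or small in these control classes and seen in the same classes of the knockout library. CD8 T cells with Mt1 were deeper, with medians of 21458 and 11287.5 UMIs in the knockout and 26712.5 and 9767 in the control library, and the part of depth in this was not tested.

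Mtf1, the gene of the zinc sensor itself, was within 1.5-fold in all 8 classes. In these classes other than mature DCs, its knockout level ran from 19.7 CPM (13.2 to 28.3) in B cells to 33.5 (29.1 to 38.4) in cDC1. The control level ran from 21.9 (14.5 to 31.6) to 27.6 (22.3 to 33.7) in the same classes. The intervals of these ends overlapped in the control library but not in the knockout library. Mature DCs stood outside that range, at 83.2 (70.4 to 97.52) and 58.1 CPM (49.0 to 68.3), with intervals above those of the 7 other classes compared. CD8 T cells were at 29.03 (27.4 to 30.8) and 25.2 CPM (23.8 to 26.7), a log2 ratio of 0.17 against -2.36 for Mt1. The log2 ratios of Mtf1 ran from -0.12 in B cells to 0.48 in mature DCs. The interval of the ratio lay above 1 in CD8 T cells and mature DCs and held 1 in the other classes. Scaling by the median ratio of genes took the CD8 T value to 0.03.

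Slc30a1, the exporter gene and a target of MTF-1, was highest in monocytes or macrophages among the 8 classes compared. Monocytes or macrophages had 38.7 CPM (34.8 to 42.8) in the knockout library against 70.5 (68.4 to 72.5) in the control, 1.82-fold (1.64 to 2.03) apart, with a log2 ratio of -0.79. Macrophages (42.9 and 73.2 CPM) and monocytes (33.9 and 56.4 CPM) each showed this gap. The share of cells with a UMI was 28.97% and 51.6%, or 9.22% and 16.8% at 3000 UMIs per cell. cDC1 had 11.2 (8.76 to 14.2) and 13.9 CPM (10.3 to 18.5) and cDC2 had 14.3 (11.7 to 17.4) and 10.8 (7.09 to 15.6), with overlapping intervals. The 4 lymphocyte classes and mature DCs were at 1.99 to 8.89 CPM. In CD8 T cells, where Mt1 and Mt2 were 5.40-fold and 5.23-fold lower in the knockout library, Slc30a1 was at 5.05 (4.37 to 5.81) and 3.84 CPM (3.31 to 4.43), levels too low for a call.

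Slc39a14, the importer gene, was highest, among groups of at least 50 cells, in plasmacytoid DCs, the producers of type I interferon, at 94.97 CPM (82.3 to 109) in 125 knockout cells. The control library had 25 such cells, too few for a level. Monocytes or macrophages had 18.3 (15.7 to 21.3) and 32.4 CPM (31.03 to 33.8), 1.77-fold (1.51 to 2.07) apart, with a log2 ratio of -0.68. The gap was wider in monocytes, at 13.6 (9.60 to 18.6) and 45.9 CPM (42.1 to 50.1), 3.38-fold apart, while macrophages were at 20.9 (17.4 to 24.8) and 29.3 (27.9 to 30.8), within 1.5-fold. In the control library monocytes were above macrophages, while in the knockout library the intervals of the states overlapped. When classes were taken from Leiden clusters, the ratio of the whole class was -0.58, inside 1.5-fold. CD8 T cells (15.97 and 18.1 CPM), T cells of unresolved subtype (15.9 and 16.8), NK cells (16.03 and 17.8) and B cells (9.51 and 11.7) were within 1.5-fold. The 3 DC classes were under 10 CPM, at 4.93 to 9.96.

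**Figure D3:**
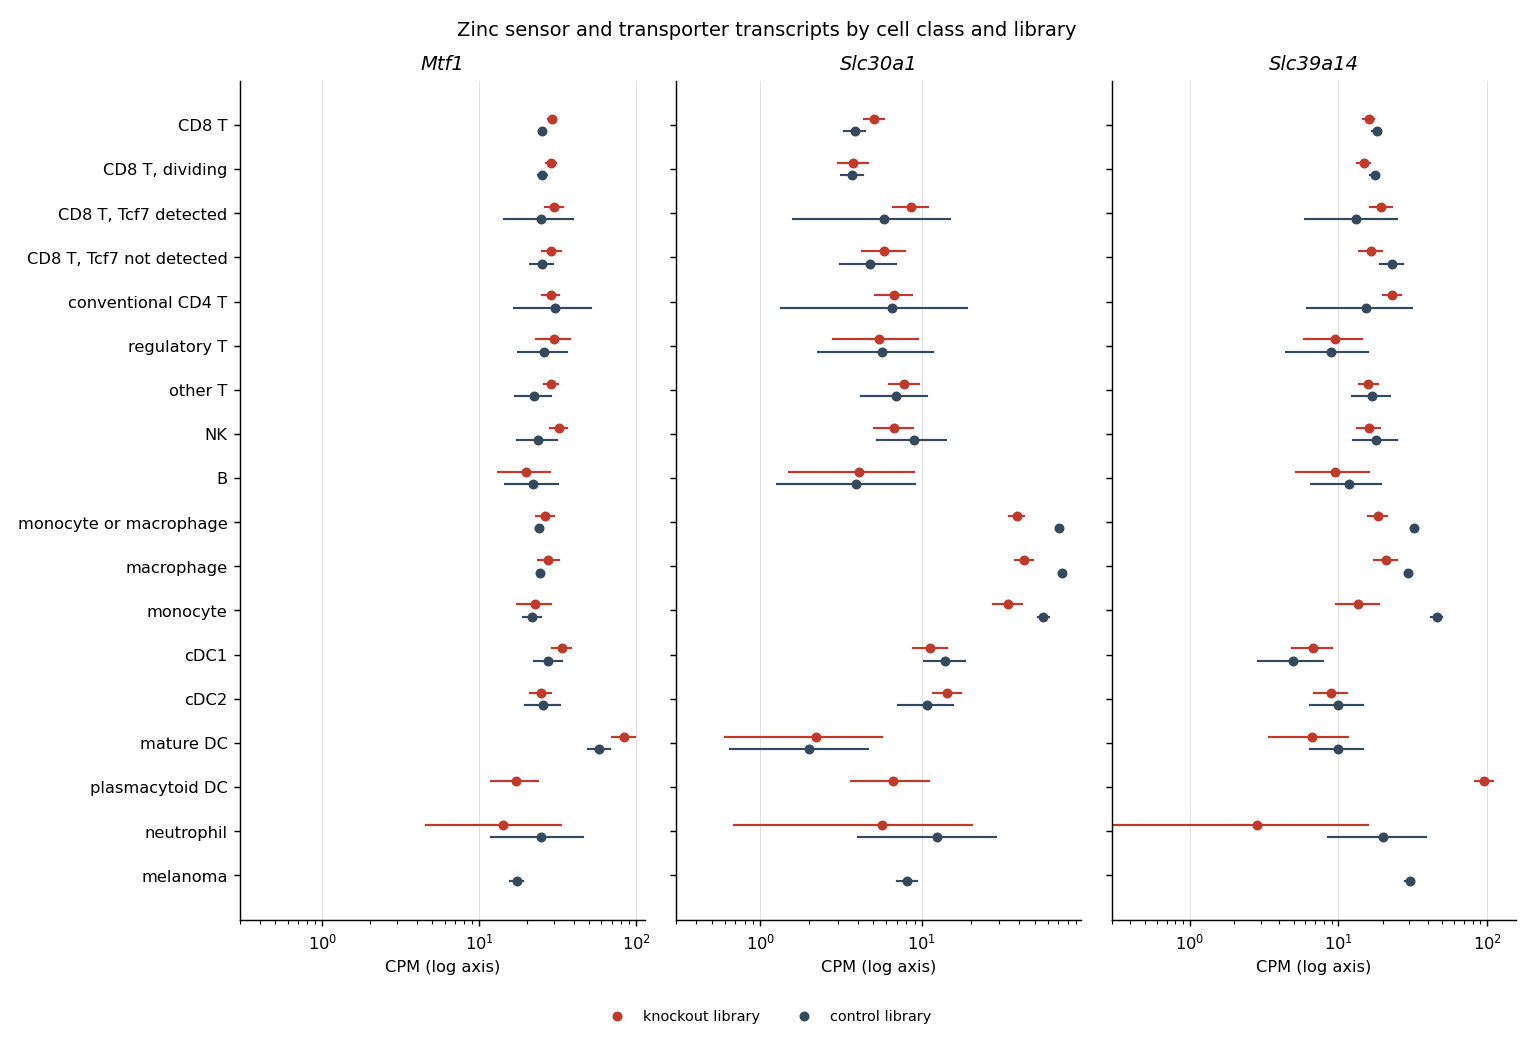
CPM of Mtf1, Slc30a1 and Slc39a14 (log axis, from 0.3) by gated class and state, with 95% Poisson intervals as lines; red is the knockout and dark blue the control library. Mature DCs stand apart for Mtf1, monocytes and macrophages for Slc30a1, and plasmacytoid DCs (94.97 CPM) for Slc39a14.

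Of the 40 pairs of gene and class, 29 had a mean of at least 10 CPM, and of these 12 were at least 1.5-fold lower in the knockout library, 0 at least 1.5-fold higher and 17 in between. Mt1 gave 7 of the 12 (all classes but cDC2), Mt2 gave 3, and Slc30a1 and Slc39a14 gave 1 each. Read against all genes with a mean of at least 10 CPM, calls in the lower direction were made for 7.91% of genes in CD8 T cells, 12.9% in T cells of unresolved subtype, 5.48% in NK cells and 11.5% in B cells. They were made for 14.6% in monocytes or macrophages, 5.8% in cDC1, 8.37% in cDC2 and 12.9% in mature DCs. Calls in the higher direction were made for 18.6%, 21.1%, 8.27%, 13.3%, 16.2%, 11.8%, 15.5% and 21.8% of genes in the same order of classes. In CD8 T cells, 2 of the 4 genes measured were among the lower calls. In monocytes or macrophages 3 of 5 were, at log2 ratios of -0.79 to -0.65, just past 1.5-fold. With no replicate, a share of genes past a fold is a description of these libraries.

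**Figure D4:**
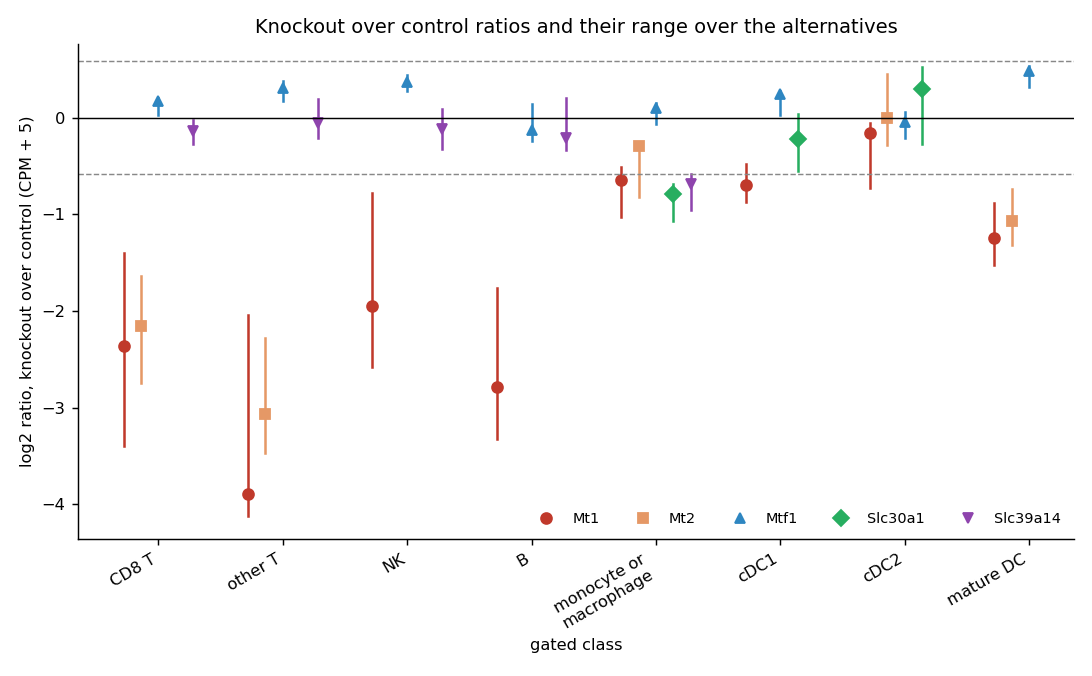
Log2 ratio of CPM plus 5, knockout over control, for each gene with a mean of at least 10 CPM in each of 8 classes (points), with the range over 15 processing alternatives (lines); dashed lines mark 1.5-fold. Mt1 lies from -3.90 to -0.15 and Mtf1 from -0.12 to 0.48.

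The mix of cells also differed between libraries, and this widened the gap in pooled levels. Over the 8 classes together Mt1 was at 115 and 545 CPM, 4.75-fold apart. With the control levels weighted by the knockout mix of cells the gap was 3.53-fold, and with the knockout levels weighted by the control mix 2.08-fold. For Slc30a1 the pooled levels were 10.5 and 38.2 CPM, 3.65-fold apart, and these figures were 1.28-fold and 1.70-fold. Pooled Mtf1 was at 29.9 and 25.2 CPM. Cells that the gates left unassigned showed the same direction for Mt1, at 223 (217 to 229) and 653 CPM (645 to 661). Their make-up differed too, with melanoma markers at 295 and 1708 CPM and C1q genes at 723 and 5122 CPM.

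Mt1 (1246 bases) and Mt2 (905 bases) have very short gene spans, and short genes as a whole were lower in the knockout library. The shortest 25% of genes by span reached up to 11709 bases in CD8 T cells and 12121 in cDC1. They are therefore not matched to the metallothioneins in span. In CD8 T cells the shortest 25% of genes by span had a median log2 ratio of -0.28, against 0.14 for all genes, and 0.627% of those 2073 genes had a ratio as low as that of Mt1, itself included. The figure was 0.0461% in T cells of unresolved subtype, 0.992% in NK cells, 0.379% in B cells, 4.08% in mature DCs and 8.26% in cDC1. In monocytes or macrophages 25.4% and in cDC2 61.3% of the short genes were as low, so there the Mt1 ratio lay among those of many short genes. The part of gene span in the metallothionein ratios was not tested.

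**Figure D5:**
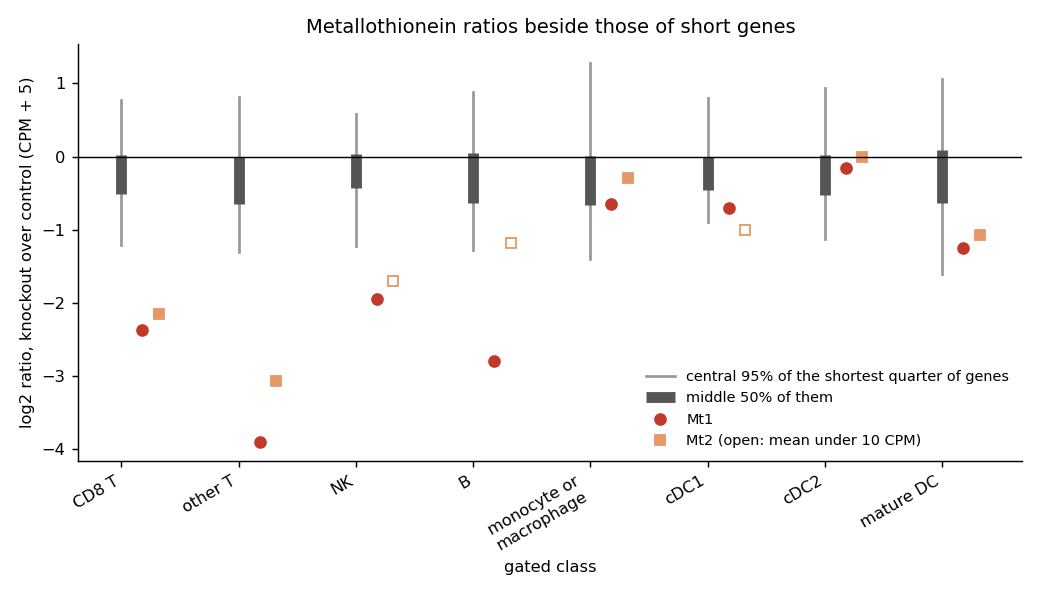
Log2 ratio of CPM plus 5, knockout over control, of Mt1 and Mt2 in 8 classes, beside the middle 50% (thick bars) and central 95% (thin lines) of the shortest 25% of genes by span. Both metallothioneins lie below the thin line in CD8 T cells and T cells of unresolved subtype, and inside it in monocytes or macrophages, cDC2 and mature DCs. Both also lie below it in NK cells, where Mt2 had a mean under 10 CPM (open square).

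Most other zinc transporters were within 1.5-fold. Of 9 further exporter genes (Slc30a2 to Slc30a10), 4 were measured in CD8 T cells, with 1 higher, 0 lower and a median log2 ratio of 0.17 beside 0.14 for all genes. In mature DCs 3 of 4 were higher, led by Slc30a4, which loads zinc into vesicles, at 38.5 and 12.7 CPM (1.30). Of 13 further importer genes, 6 were measured in CD8 T cells and all were within 1.5-fold (median 0.05), and in monocytes or macrophages 1 of 8 was higher and 1 lower (-0.06). In B cells 1 of 8 was higher and 2 were lower (0.23), namely Slc39a6 at 9.51 and 18.7 CPM (-0.71) and Slc39a13 at 7.47 and 14.8 CPM (-0.67), which were named after their values were seen. Both were under 10 CPM in the knockout library, and no interval was computed for their ratios. Among all genes, 13.3% were higher and 11.5% lower in B cells, 16.2% and 14.6% in monocytes or macrophages, and 21.8% and 12.9% in mature DCs. With 8 genes measured, 1 or 2 calls are too few to set the importers apart from all genes. Mt3, a metallothionein best known from brain, was read in T cells and was at 0.870 CPM or less in each of the 6 other classes compared. It stood at 21.8 and 40.2 CPM in CD8 T cells (-0.75) and at 10.3 and 49.9 CPM in T cells of unresolved subtype (-1.85). The CD8 value was chosen after it was seen, since it is under the 2-fold used for naming genes of these lists. Mt4 had 0 UMIs in all 8 classes of both libraries.

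Genes of other inputs to metallothionein transcription differed by class. Of the 10 hypoxia genes, none of those with a mean of at least 10 CPM was at least 1.5-fold higher in any of the 8 classes, and 7 of 8 measured were lower in CD8 T cells (median -1.47), 6 of 8 in T cells of unresolved subtype (-1.38), 7 of 8 in NK cells (-1.21) and 5 of 6 in B cells (-1.39). They were also lower in the myeloid classes, with medians of -0.72 in monocytes or macrophages, -0.85 in cDC1, -1.14 in cDC2 and -1.12 in mature DCs. Among them in CD8 T cells were Bnip3, a mitophagy receptor gene, at 9.57 and 47.7 CPM (-1.86), and the glycolytic gene Pgk1 at 216 and 682 CPM (-1.63). Glucocorticoid-induced genes pointed the other way in some myeloid classes: 6 of 8 were higher in monocytes or macrophages (median 1.37) and 7 of 7 in cDC2 (1.27), the class in which both metallothioneins were within 1.5-fold. In cDC1 4 of 5 were higher (0.81) and in mature DCs 2 of 5 (0.55). In CD8 T cells their median was 0.02. Targets of NRF2, the oxidative stress factor, were lower in monocytes or macrophages (6 of 7, median -1.31), with 5 measured in CD8 T cells at a median of -0.19. Of 8 copper genes, 2 of 6 measured were lower in CD8 T cells (-0.21). Over the 8 classes, 5.48% to 14.6% of all genes were called lower and 8.27% to 21.8% higher. These lists were described by counts only, and their part in the metallothionein levels was not tested.

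Across the 16 sums of 8 classes and 2 libraries, which share libraries and their free RNA, the patterns of Mt1 and Mt2 went together, with a Pearson r of 0.89 on log2(CPM plus 5). Among the other genes most like Mt1 were Tspan31, Vamp8 and Slc16a3 (0.86 to 0.88), and those most like Mt2 were Paox, Gm16754, Smim7 and Aup1 (0.86 to 0.90). Mtf1 was most like Apol7c, Ankrd35, Kcng3, Il12b and Fam177a (0.95 each), and its r with Mt1 was -0.175 and with Mt2 -0.17. Slc30a1 was most like Lipa, Sdcbp, Cln8, Gla and Cmpk2 (0.93 to 0.955), and Slc39a14 most like Ctsd, Comtd1, Tex264, Mapk6 and Pld3 (0.89 to 0.93). These are the highest of 11349 genes, and the points are too few and too dependent for more than a description.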

How the data were processed

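The data are droplet single-cell libraries, 1 per group, each from viable CD45+ cells of 3 tumours. The authors deposited counts of unique molecular identifiers per gene and cell, made with Cell Ranger 7.2.0 on mm10 per the submitters' processing notes; the annotation and the use of strand are not given in the sources used here. The libraries hold 9130 and 10882 barcodes and 127186298 and 208936136 counts (knockout, control). Cells with at least 200 genes and under 10% mitochondrial counts were kept (the limit removed 4.67% and 13.5%). A cell was assigned to the class with the most of its 6 markers detected, at least 3, and at least 2 more than any other class (1 between DC classes). Counts were summed per class and library and divided by the class total to give CPM. Log2 ratios used a pseudocount of 5 CPM, and a call needed a mean of at least 10 CPM, 1.5-fold and 100 cells per library. Intervals are exact Poisson for levels, Clopper-Pearson for shares and conditional binomial for ratios, at 95%. Coordinates and coding sequences are from GENCODE vM21, which held 32235 of the 32285 identifiers (99.85%). Scripts ran in Python 3.11.15 with numpy 2.4.6, scipy 1.17.1, pandas 2.3.3 and scanpy 1.11.5, and were tested on simulated data.

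The 5 genes, the gene lists and the marker sets were chosen with earlier results of these data known. All 5 genes were described in every class. Genes of other lists were named at 2-fold or more in a class described, at most 4 per class and list, together with the 5 genes most like each of the 5 in pattern, of which 1 is not reported here. At its own threshold Scrublet marked 0 knockout and 1.70% of control barcodes, so doublets were kept and removal of the highest-scoring 7.30% and 8.71% was an alternative. The other alternatives changed the mitochondrial limit, the gene minimum, the gates, the clustering, the scaling, the averaging, the pseudocount, the free RNA and the dividing cells. Subtracting RNA of the melanoma gate and a cap of 10 UMIs per cell were chosen after seeing the data.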

Additional observations from a re-analysis of the deposited data

How the results depend on the processing

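The count of 12 gene and class pairs at least 1.5-fold lower in the knockout library ran from 11 to 16 over 15 alternatives, and the count of pairs higher was 0 in each. All 15 kept Mt1 and Mt2 past 1.5-fold in CD8 T cells, T cells of unresolved subtype and mature DCs, Mt1 in B cells, and Slc30a1 in monocytes or macrophages. The log2 ratio ran from -3.39 to -1.40 for Mt1 and from -2.75 to -1.64 for Mt2 in CD8 T cells, from -4.12 to -2.04 for Mt1 in T cells of unresolved subtype, and from -1.07 to -0.69 for Slc30a1. Mt1 lost its call in cDC1 under 3 alternatives (up to -0.48), in NK cells with free RNA of the whole library subtracted (-0.77, under 10 CPM) and in monocytes or macrophages with the cap on UMIs per cell (-0.51), and Slc39a14 lost its call with classes from Leiden clusters (-0.58). Mt1 in cDC2 passed 1.5-fold under 2 alternatives (down to -0.73). The cause of these was not tested. Scaling by the median ratio removed a shift of 0.016 to 0.173 on the log2 scale. In some alternatives cDC1 or cDC2 had under 100 control cells, at least 65. Depth limits Mt2 in NK cells, B cells and cDC1, and Slc30a1 in lymphocytes, to few molecules. No paired analysis was possible because each group has 1 library.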

Other observations

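In monocytes or macrophages, Prdx1, a peroxiredoxin gene and a target of NRF2, was at 323 CPM in the knockout and 1395 CPM in the control library (log2 ratio -2.09). Hmox1, the heme oxygenase gene, was at 373 and 1019 CPM (-1.44), and Gclm, the modifier subunit of glutathione synthesis, at 19.7 and 60.9 CPM (-1.42). Glucocorticoid-induced genes were higher in the knockout library in the same cells: Zbtb16, a transcription factor gene, was at 73.5 and 6.56 CPM (2.76), and Dusp1, a MAP kinase phosphatase gene, at 820.0 and 154 CPM (2.38). In cDC2 these were at 55.9 and 3.19 CPM (2.90) and at 241 and 26.3 CPM (2.98). Mt1, which both inputs are known to raise, was 1.57-fold lower in the first class and within 1.5-fold in the second. Of 5 NRF2 targets measured in cDC2, 2 were higher and 2 lower (median -0.36). In cDC1, 4 of 5 glucocorticoid-induced genes were higher, while Mt1 was 1.67-fold lower. The part of either input in the Mt1 levels was not tested.

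The sources of the reads of each gene differed between the libraries. Monocytes or macrophages held 65.3% of the control Slc30a1 UMIs and 26.3% of those of the knockout library. Of the Mt1 UMIs, 34.8% were in the melanoma gate, 30.15% in monocytes or macrophages and 14.4% in CD8 T cells of the control library. In the knockout library 24.0% were in monocytes or macrophages, 18.4% in CD8 T cells, 10.1% in the melanoma gate and 31.4% in cells left unassigned by the gates. The 17 knockout cells of the melanoma gate were at 1155 CPM of Mt1 (1102 to 1210), too few for a comparison with the 2053 CPM of the 487 control cells.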
